A study of Felis catus with 23 samples.

Results

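The names hsa-miR-638, hsa-miR-762, hsa-miR-1207-5p, hsa-miR-1225-5p, hsa-miR-2861, hsa-miR-3665, hsa-miR-3960, hsa-miR-4466, hsa-miR-4516 and hsa-miR-4530 are human microRNAs (miRNAs) known for G- and C-rich mature sequences. They were chosen by name with earlier results of these data known, so their brightness here is not an independent finding. They are 10 of the 2026 miRNA names on an array that was used here to measure cat serum. Together they held 21 of the 4944 miRNA probes, 3 for miR-4516 and 2 for each of the others (the prefix hsa- is left out from here on). The serum came from 11 cats with hypertrophic cardiomyopathy (HCM), a disease in which the heart muscle thickens, and from 12 healthy cats, and each cat had 1 array. The labels give no age, sex, breed or treatment of the cats, so the groups are known only as HCM and healthy. Per the labels, serum was taken after a clotting time of 20 min and a spin of 5 min at 600 g and then stored at -80 °C. RNA was isolated with Qiazol and a miRNeasy kit and labelled with Cy3.

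A miRNA is a short RNA that guides a protein complex to messenger RNAs with a matching site, which are then degraded or translated less. Serum carries miRNAs released from blood cells and tissues, bound to proteins or inside vesicles. The human loci of some of the 10 names are known. MiR-2861 and miR-3960 come from neighbouring precursors of 1 cluster and are known from bone-forming cells. MiR-638 lies in an intron of DNM2, which encodes a dynamin, and miR-1225 in an intron of PKD1, which encodes polycystin-1. The probes were designed for human sequences, and which of the names have a cat counterpart was not analysed here.

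The signal of a probe was its spot brightness after background subtraction, averaged over its 10 or 15 spots. All 21 probes were well above background on 23 of 23 arrays, in 100% of their spots, and no spot was saturated. The arrays themselves differed widely: the 75th percentile of the probes detected on every array ran from 90.5 on healthy 20 to 699 on healthy 15. Healthy 15 was the brightest array and healthy 20 the dimmest, and correlations of array pairs ran from 0.834 to 0.974. Scaled signals below are intensities divided by that percentile and brought back to a common level, on the log2 scale. The serum label was checked with blood and tissue markers. Of 5 red cell names, 4 (miR-451a, miR-144-3p, miR-486-5p and miR-92a-3p) were detected on 23 arrays and miR-16-5p on 3, whereas none of the 4 heart and skeletal muscle names was detected on enough arrays to be tested. Of 5 platelet and myeloid names, miR-223-3p was detected on 21 arrays and miR-24-3p on 20, but miR-126-3p and miR-150-5p on 1 each and miR-191-5p on 0. The liver name miR-122-5p was detected on 10. The blood markers were thus present in part. The arrays lay on 3 slides, and on each slide the HCM arrays filled 1 row and the healthy arrays the other, so that row and group cannot be told apart.

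The brightest of the 10 names were miR-4466 and miR-3960, which stood among the 10 brightest of the 2026 names on every array. A rank here orders spot brightness within an array and not the amount of RNA, since probes bind and label differently. The rank of miR-4466 had a median of 3 and ran from 1 to 10, and that of miR-3960 a median of 4, also from 1 to 10. Each of them was the brightest name on 1 array, while miR-5100 was the brightest on 19. The next 5 names kept to a middle band. Median ranks were 21 for miR-4516 (10 to 34), 23 for miR-1225-5p (11 to 30), 25 for miR-1207-5p (18 to 31), 28 for miR-762 (15 to 61) and 30 for miR-3665 (15 to 47). These bands overlapped, so the order of those names differed between arrays.

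MiR-4530 and miR-2861 ranked lower, with medians of 53 (36 to 86) and 58 (34 to 88). MiR-638 ranked lowest, at a median of 95 (40 to 121), which is still among the brightest 4.69% of the names on the array, and was outside the first 100 on 9 of 23 arrays. The other 9 names were inside the first 100 on all 23. Together the 10 names held 11.1% of the summed signal of all names on healthy 19 and 24.98% on healthy 15, the arrays at the ends of that range. Mean ranks in HCM and healthy arrays differed by at most 6.49 places, in miR-762, which was 32.9 ± 13.5 (SD, n = 11) in HCM and 26.4 ± 8.7 (SD, n = 12) in healthy arrays. None of the 10 names passed the threshold of an adjusted p of 0.05 (smallest adjusted p 0.925, permutation test with Benjamini-Hochberg adjustment over all 543 tested names). The share of all tested names that passed was 0%, and 6.26% had an unadjusted p under 0.05, none of them among the 10.

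The unscaled signal of every one of the 10 names rose with the brightness of the array, measured as the log2 75th percentile without their own probes. All 10 relations passed the threshold over 23 arrays, and 93.9% of all tested names did too, so this is shared with nearly all tested names. The names differed in how steeply they followed. A slope of 1 means that a name brightens in proportion to the array, and the median slope of all tested names was 0.948. MiR-638 had a slope of 1.498 (SE 0.167) and miR-4516 of 1.44 (SE 0.0954), which placed them above 96.3% and 95.2% of the tested names. For miR-638 this is a 44.5-fold range of unscaled signal, from 44.4 on healthy 20 to 1974 on healthy 15. At the shallow end, miR-1225-5p had a slope of 0.666 (SE 0.149) and an 8.0-fold range, from 656 on healthy 22 to 5235 on healthy 15. The slopes of the other 7 names lay between 0.745 in miR-3665 and 1.23 in miR-762.

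**Figure D1:**
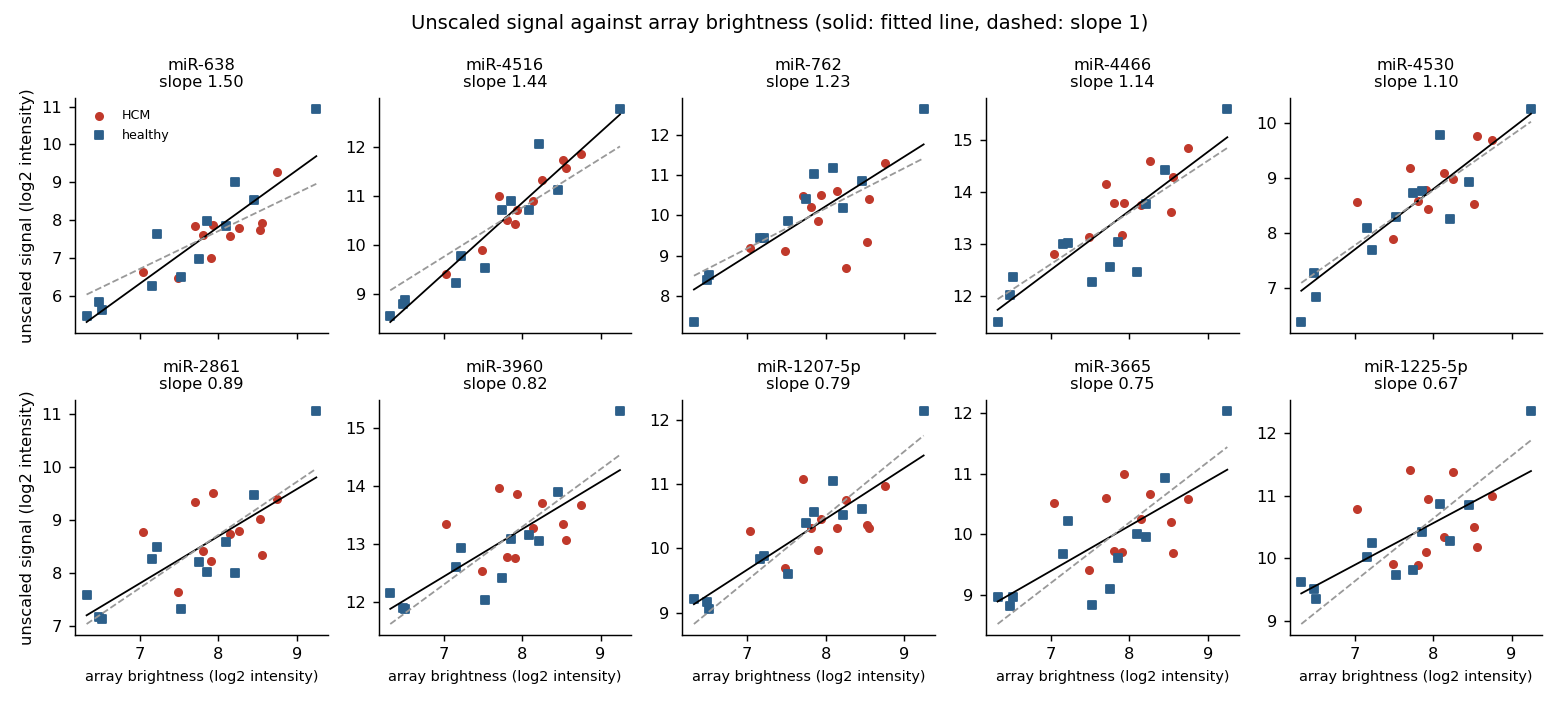
Unscaled log2 intensity (y axis) of each name against the brightness of the array (x axis, log2 intensity), 1 point per array, with circles for HCM and squares for healthy cats. The solid line is the fitted slope and the dashed line a slope of 1; miR-638 and miR-4516 rise more steeply than the dashed line (slopes 1.498 and 1.44), and miR-1225-5p less steeply (0.67).

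Dividing by the 75th percentile removes a slope of 1, so a name with a steeper slope keeps a relation to brightness after scaling. MiR-4516 did: its scaled signal rose with brightness (r = 0.726, permutation adjusted p 0.000679, Spearman rho = 0.793 with adjusted p 0.000362, n = 23). Without the 2 arrays farthest in brightness, healthy 15 and healthy 20, r was 0.658 with an adjusted p of 0.00884, and within slides 1, 2 and 3 it was 0.710, 0.720 and 0.618. MiR-638 also passed (r = 0.548, permutation adjusted p 0.0329), but its rho of 0.523 did not (adjusted p 0.0574). With this measure of brightness it rests on the same 2 arrays, since r without them was 0.355 (adjusted p 0.352, with 16.4% of all tested names passing), and within slides it was 0.581, 0.343 and 0.430. With the median of the probes as brightness, miR-638 passed by r (0.632, adjusted p 0.00695) and by rho (0.639, adjusted p 0.00936), and r without the 2 arrays was 0.471. MiR-4516 passed there too (r = 0.732, adjusted p 0.000708), as did 21.9% of all tested names. Among all tested names, 21.9% passed this test and 4.05% passed with a positive sign, against 2 of the 10 here.

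MiR-1207-5p and miR-1225-5p leaned the other way, with r of -0.422 and -0.439, and did not pass (permutation adjusted p 0.161 and 0.136). Both had larger coefficients without healthy 15 and healthy 20, at -0.551 and -0.533 (adjusted p 0.0557 and 0.0677). The remaining 6 names had coefficients between -0.303 in miR-3665 and 0.255 in miR-762, with adjusted p of at least 0.403. Within single slides of 7 or 8 arrays none of the 10 names passed, although 70, 59 and 48 of all tested names did.

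The control spots gave a second view of the arrays. The scaled signal of miR-4530 fell as the labelling spike rose, an RNA that the labelling kit adds to each sample (r = -0.699, permutation adjusted p 0.00652, rho = -0.707 with adjusted p 0.00827, n = 23). It was -0.662 without healthy 16 and HCM 2, the arrays with the most and the least spike signal, and -0.836, -0.754 and -0.576 within the slides (exact permutation p 0.0125, 0.0289 and 0.131). The other probe of miR-4530 gave -0.717. No other name of the 10 passed for this spike, where 7% of all tested names did and 0.737% with a negative sign. MiR-762 came nearest, at -0.455 (adjusted p 0.210). The bright corner spots, control spots at the corners of the array, repeated the brightness relation for miR-4516 alone (r = 0.636, adjusted p 0.00747, against 20.1% of all tested names). Against a measure of red cell content, the log2 difference of miR-451a and miR-23a-3p, none of the 10 names passed, where 0.368% of all tested names did.

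A group of 5 names varied together from array to array. The scaled signals of miR-1207-5p, miR-1225-5p, miR-2861, miR-3665 and miR-3960 had correlations between 0.700 and 0.964 in all 10 of their pairs. The closest pair was miR-3665 and miR-3960 (r = 0.964, rho = 0.955, permutation adjusted p 0.000484 over all 147153 pairs of tested names). It was 0.950 without HCM 2 and healthy 19, and 0.994, 0.977 and 0.970 within the slides. The cluster neighbours miR-2861 and miR-3960 had an r of 0.917, close to that of miR-1225-5p and miR-3960 at 0.925. The least alike of the 10 pairs, miR-1207-5p and miR-2861, still had 0.700 (adjusted p 0.0042), and 0.769, 0.909 and 0.568 within the slides. The group is not bounded by these 5 names, since other tested names followed them about as closely. MiR-1225-5p had an r of 0.976 with miR-1268a, miR-2861 of 0.962 with miR-5001-5p and miR-3960 of 0.964 with miR-4687-3p. MiR-1207-5p and miR-3665 were closest to a name of the group, at 0.876 against 0.866 and 0.964 against 0.963 outside it.

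The shared pattern can be read from single arrays. On 8 arrays each of the 5 names was above its own mean, on 9 arrays each was below it, and 6 arrays were mixed. HCM 2 was highest, on average 1.04 log2 units above the names' means, followed by HCM 7 at 0.75 and healthy 15 at 0.68. HCM 5 was lowest, at -0.84, followed by healthy 19 at -0.61 and healthy 21 at -0.56. High and low arrays were thus found in both groups. These 5 names were singled out after their values were seen.

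**Figure D2:**
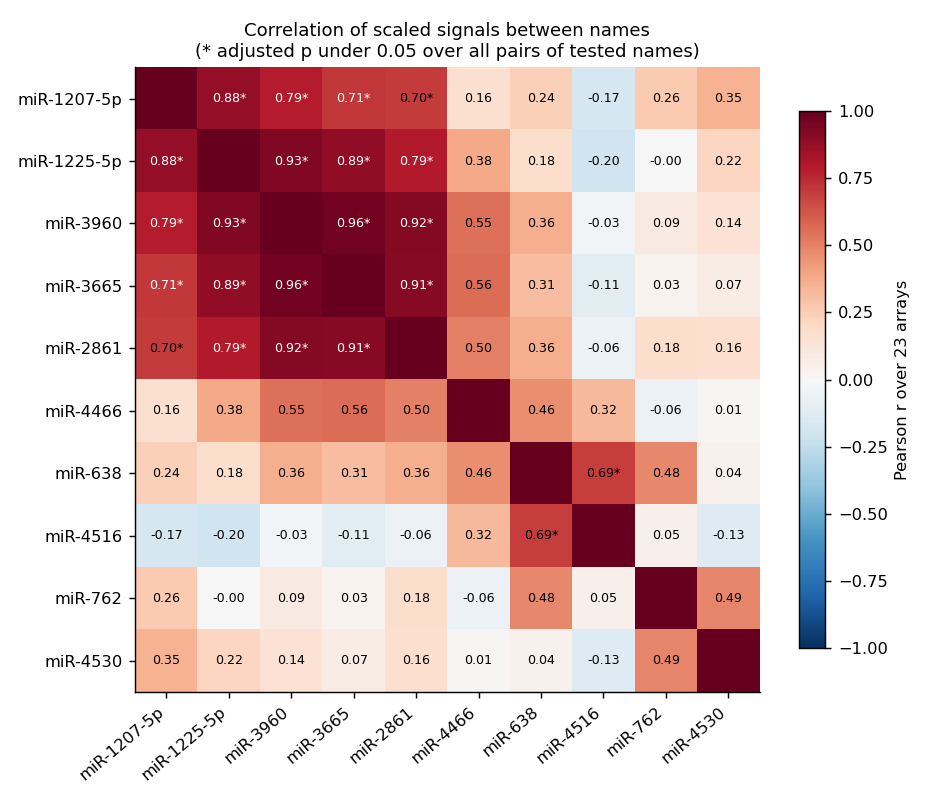
Pearson correlation over 23 arrays of the scaled signals of each pair of names, with red for positive and blue for negative values and a star where the adjusted p is under 0.05. The 10 pairs of miR-1207-5p, miR-1225-5p, miR-3960, miR-3665 and miR-2861 run from 0.70 to 0.96, and the only other starred pair is miR-638 with miR-4516 at 0.69, which is -0.25 with the other probe of miR-638.

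In all, 11 of the 45 pairs passed the threshold, every one with a positive sign, against 8.73% of all pairs of tested names and 6.77% with a positive sign. The median r was 0.311 over the 45 pairs and 0.0155 over all pairs. The pair outside the group of 5 was miR-638 and miR-4516 (r = 0.688, adjusted p 0.00849, rho = 0.633), the names with the steepest brightness slopes. It holds for 1 probe of miR-638, the one used here. The other probe had an r of -0.25 with miR-4516, and of 0.62 to 0.73 with the group of 5, values given with no test. It fell to 0.477 without healthy 15 and healthy 17, and to 0.503 after a straight line on brightness was taken out of both. MiR-4466 came close to the group of 5 without passing, at 0.557 with miR-3665 (adjusted p 0.0564) and 0.554 with miR-3960 (0.0606), but at 0.16 with miR-1207-5p. By rho, miR-4466 passed with miR-3665 (0.609, adjusted p 0.0367), so that 12 of the 45 pairs passed, against 7.95% of all pairs. Among the chosen names, miR-762 and miR-4530 were closest to each other (r = 0.490, adjusted p 0.117), with 0.0652, 0.447 and 0.803 within the slides. Other tested names were closer, at 0.775 for miR-762 with miR-4665-5p and 0.672 for miR-4530 with miR-623. The same held for miR-638 (0.918 with miR-1226-5p), miR-4516 (0.783 with miR-4651) and miR-4466 (0.776 with the herpesvirus name hsv1-miR-H15). MiR-4516 had negative coefficients with 6 of the other 9 names, down to -0.201 with miR-1225-5p, none of which passed.

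How strongly the 10 names moved together depended on the scaling. Without scaling, all 45 pairs passed, as did 70.4% of all pairs, and the median r was 0.818. In the authors' deposited log2 values, 17 of the 45 passed, against 12.3% of all pairs. There miR-4466 passed with miR-3665, miR-3960 and miR-2861 (permutation adjusted p 0.0342, 0.0249 and 0.0453) and with miR-638 (0.039). Taking brightness out of the scaled values left a median r of 0.437, and centring them within slides left 0.343. The tested names most like the 10 on average over 23 arrays were miR-3656 (mean r 0.590), miR-4687-3p (0.582), miR-4281 (0.559), miR-373-5p (0.555) and the herpesvirus name hsv2-miR-H10 (0.554). For each of them the closest of the 10 had an r of at least 0.887, while the farthest lay between -0.166 and 0.0508.

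Each name had at least 2 probes, and these did not always give the same pattern. For 7 of the names the probes agreed closely over the arrays, with r of 0.978 or more, and for miR-3960 it was 0.999. The probes of miR-638 had an r of 0.286, of miR-4466 0.676 and of miR-762 0.884. Over 265 probe pairs of 214 names the median was 0.990. Only 1.51% of those pairs had an r below that of miR-638, 5.66% below that of miR-4466 and 16.2% below that of miR-762. The spread between the spots of a probe within an array was far smaller than these differences, with a median SD of 0.063 and 0.049 log2 units for the 2 probes of miR-638 and 0.035 and 0.028 for those of miR-4466.

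The 2 probes of miR-638 diverged most on the brightest array. On healthy 15 the probe used here, which is brighter on average over the arrays, had a scaled signal of 9.49 and the other 7.80. On healthy 23 the order was turned, at 6.84 and 7.91, and the other probe was the brighter of the 2 on 12 of 23 arrays. The slope on brightness was 1.498 for the former and 0.867 for the latter, and the scaled signal of the latter had an r of -0.306 with brightness (permutation adjusted p 0.386), so the relation of miR-638 to brightness after scaling holds for 1 of its probes. All 3 probes of miR-4516 passed, with r of 0.726, 0.695 and 0.735. For miR-4466, the other probe lay 1.83 log2 units below the one used here on HCM 5 and 0.10 above it on healthy 14. The other probe of miR-1207-5p passed with a negative sign (r = -0.534, adjusted p 0.0418), where 23.3% of 1075 single probes passed.

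**Figure D3:**
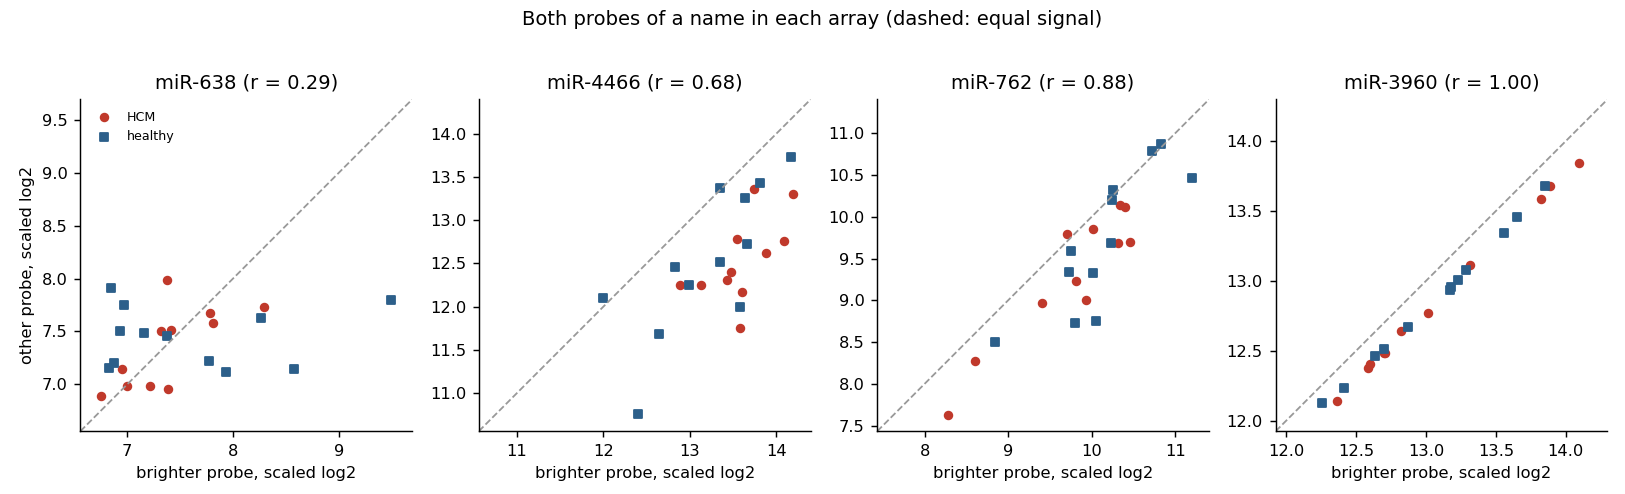
Scaled log2 signal of both probes of 4 names, with the probe that is brighter on average on the x axis, 1 point per array, circles for HCM and squares for healthy cats, and a dashed line of equal signal. The points of miR-3960 follow a line (r = 0.999), while those of miR-4466 (0.68) and miR-638 (0.29) scatter, with healthy 15 at the far right of the miR-638 panel.

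None of the 10 names differed between HCM and healthy cats beyond the spread of the arrays. Scaled signals were compared with limma, with Benjamini-Hochberg adjustment over the 543 names detected on at least 6 arrays. None of the 10 had an adjusted p under 0.05 (smallest 0.805) or an unadjusted p under 0.05 (smallest 0.0837), and a permutation test of the means called none of them either (smallest unadjusted p 0.0913). Of all 543 names 0% passed in limma and 6.81% had an unadjusted p under 0.05, while the permutation test called 1. The median difference, HCM minus healthy, was 0.03 log2 units over the 10 and -0.10 over all tested names. It was above 0 in 6 of the 10 and in 33.7% of all. Whether the arrays of a group share a litter, owner or sampling day is not in the labels. With 1 array per cat, these p-values measure the spread between arrays, which holds cat and array handling together.

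MiR-4466 had the smallest p of the 10. Its scaled signal ran from 12.88 through a median of 13.58 to 14.20 in the 11 HCM cats, and from 12.00 through 13.34 to 14.16 in the 12 healthy cats. The groups overlapped over most of this range, although 9 of 11 HCM arrays lay above the healthy median and the lowest values, on healthy 14 among others, were in healthy cats. The means were 13.60 ± 0.38 and 13.20 ± 0.64 (SD), a difference of 0.39 (SE 0.22, 95% interval -0.06 to 0.85, limma adjusted p 0.805). This difference was seen with 1 probe of the name. With the other probe it was 0.02 (95% interval -0.56 to 0.59, limma adjusted p 0.990 over 1075 single probes, of which 0% passed).

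MiR-762 had a difference of the same size in the other direction. It ran from 8.28 through 9.94 to 10.46 in HCM and from 8.84 through 10.15 to 11.20 in healthy cats. The groups overlapped, with 2 HCM arrays below all healthy arrays and 4 of 11 above the healthy median. The difference was -0.39 (SE 0.27, 95% interval -0.94 to 0.16, limma adjusted p 0.805), and -0.40 with the other probe. It was -0.24 without HCM 6.

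The group of 5 that varied together gave small differences. MiR-1207-5p ran from 9.62 through 10.04 to 11.03 in HCM and from 9.98 through 10.39 to 10.71 in healthy cats, so that HCM held both the highest and the lowest values. Its difference was -0.18 (SE 0.16, limma adjusted p 0.805), with SDs of 0.47 in HCM and 0.25 in healthy cats. MiR-1225-5p ran from 9.48 through 10.07 to 11.53 in HCM and from 9.67 through 10.49 to 11.12 in healthy cats. Here too the HCM values enclosed the healthy ones, and the difference was -0.09 (SE 0.24, limma adjusted p 0.935). It was -0.21 without HCM 2 and -0.0010 without HCM 5.

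MiR-2861 ran from 7.63 through 8.39 to 9.52 in HCM and from 7.59 through 8.47 to 9.60 in healthy cats, nearly the same range. MiR-3665 ran from 8.98 through 9.69 to 11.26 in HCM and from 8.94 through 10.19 to 10.83 in healthy cats. MiR-3960, the other very bright name, ran from 12.36 through 12.82 to 14.10 in HCM and from 12.26 through 13.17 to 13.85 in healthy cats. In these 3 names the groups overlapped, and in each 4 of 11 HCM arrays lay above the healthy median. Their differences were 0.05 (SE 0.25), 0.03 (SE 0.26) and 0.02 (SE 0.23), with limma adjusted p of at least 0.981. The direction of all 3 turned when single arrays were left out, for example to -0.05, -0.09 and -0.08 without HCM 2, which was the highest HCM array in each.

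MiR-638 ran from 6.76 through 7.37 to 8.29 in HCM and from 6.83 through 7.27 to 9.49 in healthy cats. No HCM array reached the 2 highest healthy arrays, healthy 15 and healthy 17, and the SDs were 0.44 and 0.85. The difference was -0.20 (SE 0.27, limma adjusted p 0.844), and -0.02 without healthy 15. MiR-4516 ran from 10.16 through 10.65 to 10.99 in HCM and from 9.80 through 10.33 to 11.64 in healthy cats. Its healthy values enclosed the HCM ones, and the difference was 0.17 (SE 0.19, adjusted p 0.805). MiR-4530 ran from 7.79 through 8.71 to 9.32 in HCM and from 7.84 through 8.56 to 9.31 in healthy cats, an almost equal range, with a difference of 0.17 (SE 0.18, adjusted p 0.805).

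**Figure D4:**
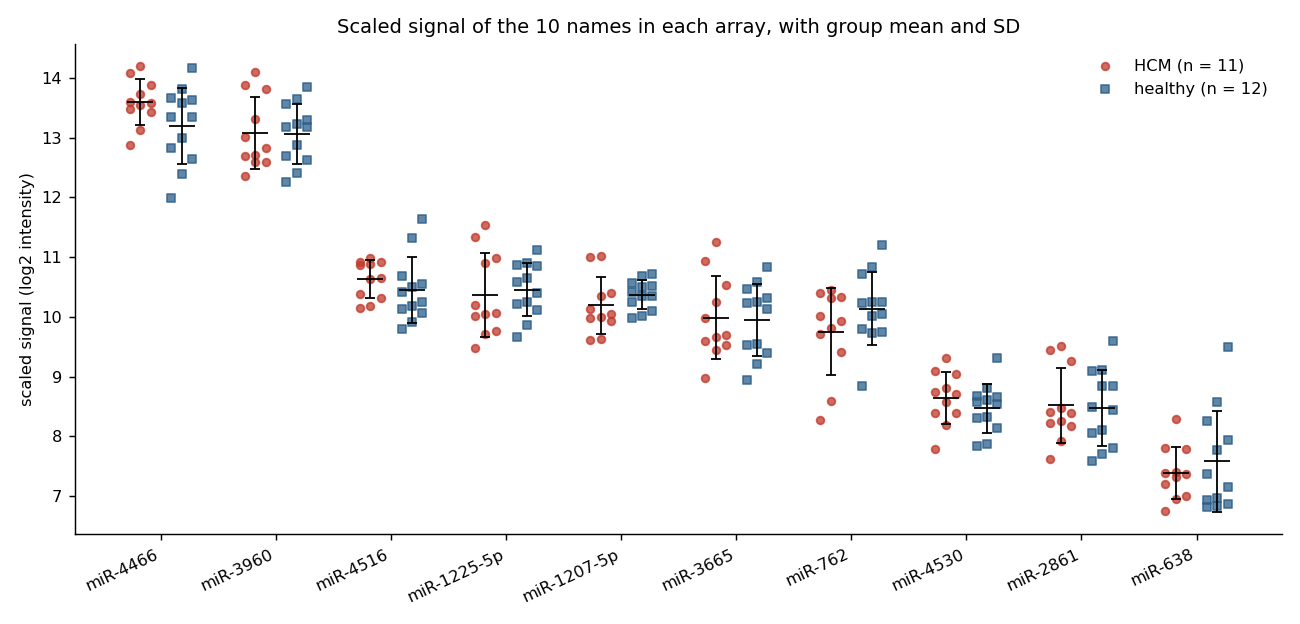
Scaled log2 signal (y axis) of the 10 names in each array, with circles for the 11 HCM cats, squares for the 12 healthy cats and bars for the group mean and SD. The groups overlap in every name, and single arrays such as healthy 15 in miR-638 (9.49) and healthy 14 in miR-4466 (12.00) lie at the ends.

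The sign of the differences depended on the scaling. HCM arrays were brighter on average, at 8.01 ± 0.51 (SD, n = 11) against 7.57 ± 0.88 (SD, n = 12) log2 units (permutation p 0.160, adjusted p 0.313 over 6 measures of the arrays), and their bright corner spots were at 10.78 ± 0.77 against 9.90 ± 1.06 (permutation p 0.0351, adjusted p 0.211). The part of either in the differences was not tested beyond the values given here. Without scaling, all 10 names were higher in HCM, as were 83.1% of all tested names. The 10 ran from 0.03 in miR-762 to 0.81 in miR-4466, and the median of all tested names was 0.21. None of the 10 passed (smallest limma adjusted p 0.650, unadjusted p 0.0409, in miR-4466), and 0% of all tested names did. An unadjusted p under 0.05 was found in 38 of all 543 names. Leaving out the scaling adds the same 0.42 to each difference, so the sign turned in each name that was below 0 by less than this. In the authors' deposited log2 values, 7 of the 10 were higher in HCM, against 53.8% of all tested names. The largest difference was again that of miR-4466 (0.56, limma unadjusted p 0.0224, adjusted p 0.426). In these values 0.921% of all tested names passed, none of them among the 10, and 41 of 543 had an unadjusted p under 0.05.

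Relative to the median of all tested names, the differences moved less between the scalings. That of miR-4466 was 0.50 above it with scaling, 0.60 without and 0.54 in the deposited values. MiR-762 was the lowest of the 10 in each, at -0.29, -0.18 and -0.25. MiR-638 and miR-1207-5p still turned in sign, from -0.09 and -0.08 with scaling to 0.014 and 0.031 without. All 10 names moved alike between these settings, since each shifted by 0.42 while the median of all tested names went from -0.10 to 0.21. The turns are thus not particular to miR-638 and miR-1207-5p. With brightness as a covariate, the difference of miR-4516 was -0.02 in place of 0.17, that of miR-1225-5p 0.06 in place of -0.09 and that of miR-638 -0.46 in place of -0.20. MiR-762 was at -0.54, miR-1207-5p at -0.09, miR-3665 at 0.16, and miR-2861 and miR-3960 both at 0.11. MiR-4466 (0.37) and miR-4530 (0.14) moved least, and none of the 10 passed (smallest limma adjusted p 0.593).

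**Figure D5:**
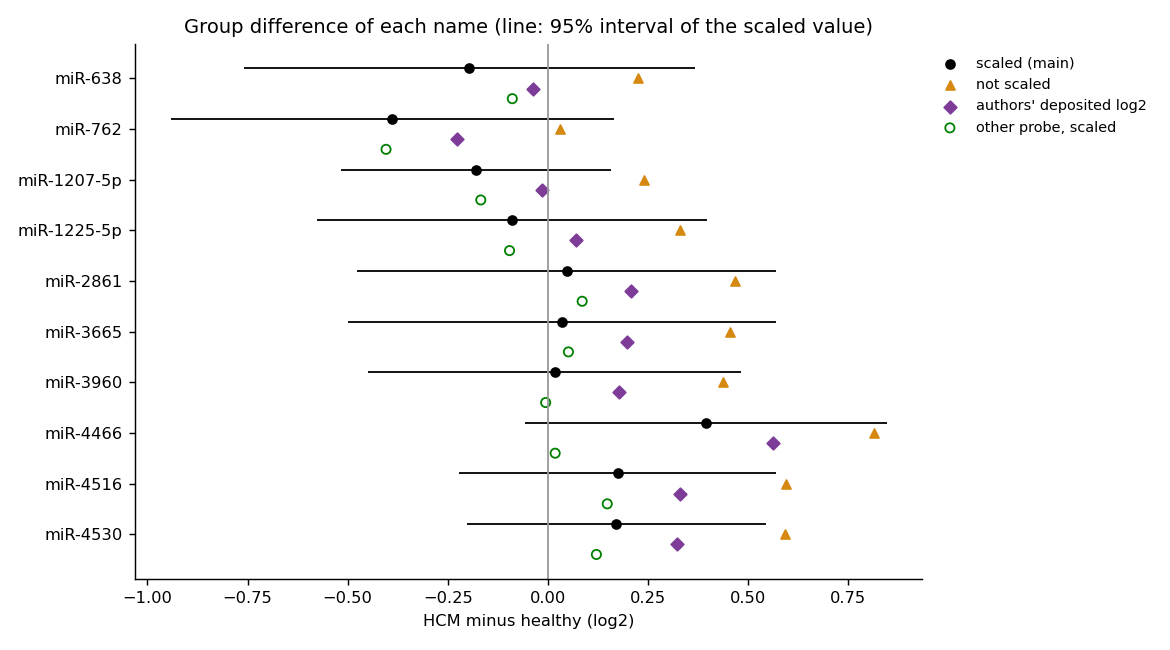
HCM minus healthy (x axis, log2) for each name, with the scaled value and its 95% interval as a black dot and line, the unscaled value as a triangle, the authors' deposited value as a diamond and the scaled value of the other probe as an open circle. Every interval spans 0, every triangle lies above 0, and the open circle of miR-4466 lies near 0 (0.02).

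The slides were not tested with the other probe of miR-4466, which gave 0.02 over all arrays. With the probe used here, the difference in miR-4466 was not of 1 size on the 3 slides. It was -0.22 on slide 1 with 3 HCM and 4 healthy arrays, 1.11 on slide 2 (limma p 0.00173, adjusted p 0.132) and 0.24 on slide 3, each with 4 arrays per group. An F test of whether its group difference depended on the slide gave an unadjusted p of 0.0433 in limma and an adjusted p of 0.998, and 0% of all tested names passed. For miR-4530 the differences were 0.52, 0.31 and -0.24, and for miR-638 they were 0.00, 0.17 and -0.80. MiR-762 gave 0.08, -0.59 and -0.59. None of the 10 passed within a slide, where 0%, 0.368% and 0% of all tested names did.

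Other names known as GC-rich were tested in the same way. Of a list of 52, 48 were on the array and 43 were tested, with 36 detected on all 23 arrays. Their median difference was -0.08, with 14 higher and 29 lower in HCM, and none passed (limma, smallest adjusted p 0.727). The smallest p belonged to miR-4497 at 0.32 (SE 0.16, unadjusted p 0.0486), the only one of the 43 under 0.05, followed by miR-572 at -0.31 and miR-150-3p at -0.24. Among the most like names, miR-3656 and miR-4687-3p differed by -0.06 and 0.03.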

How the data were processed

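Serum RNA of 23 cats was hybridised to 1-colour Agilent arrays for human miRNAs. Per the file headers, spots were quantified with Agilent Feature Extraction 10.7.3.1, and the deposited scanner files give background-subtracted intensity on a linear scale, with no normalization between arrays, and other columns of flags per spot. A deposited table holds the authors' log2 values (column medians 2.98 to 3.31), which follow the log2 scanner signals within each array (r at least 0.987); their normalization is not given in the sources used here.

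Non-outlier spots of a probe were averaged. The scaling factor of an array was the 75th percentile of 508 probes, those that every array detected (at least 50% of spots well above background). A floor was then set at the 5th percentile of well above background signals (log2 2.45), and log2 was taken. A name was represented by its brightest probe on average and tested if 6 or more of the 23 arrays detected it, as for 543 names. Groups were compared with limma 3.58.1 in R 4.3.3, after a test on simulated data. Correlations used 100000 permutations, or exact permutation within slides, with adjustment over all tested names or all pairs of them, not over the 45 pairs of the 10 names alone. Text names are the 10 names, the 5 tested names most like them, the 3 other GC-rich names with the smallest p, and blood markers. The tested name closest to each of the 10 from outside them is also given. The names and lists were chosen with earlier results of these data known. Alternatives covered scaling, floor, filter, probe choice, slide, brightness and left-out arrays; normexp used the median signal and background columns. The number of arrays limits the precision.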

Additional observations from a re-analysis of the deposited data

How the results depend on the processing

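No paired analysis was possible because the groups are different cats and the labels give no matching between them. With other scalings, floors, filters, probes, covariates and tests, 0 of the 10 names passed, and the count over all tested names changed from 0 to 1 with the total gene signal, to 5 in the authors' deposited log2 values, to 1 with a lower floor and to 1 with the permutation test; leaving out single arrays gave 0 to 0. Signs turned without scaling in miR-638 (0.22), miR-762 (0.031), miR-1207-5p (0.24) and miR-1225-5p (0.33), in miR-1225-5p also in the deposited values (0.070) and with brightness as a covariate (0.064), in miR-4516 with that covariate (-0.022), and in miR-3960 when the 21 probes of the 10 names were left out of the scaling percentile (-0.0040), with the total gene signal (-0.012) and with its other probe (-0.0057). The turns without scaling follow from the same 0.42 added to each difference. The cause of the other turns was not tested. Among the 10, the smallest unadjusted limma p was 0.0224 in the deposited values, followed by 0.0304 with normexp and 0.0309 without healthy 15. In these settings 41, 26 and 42 of all 543 names had an unadjusted p under 0.05. Leaving out single arrays gave differences of -0.053 to 0.15 in miR-2861, -0.092 to 0.14 in miR-3665 and -0.085 to 0.089 in miR-3960. The 2 brightness relations became 1 without the 2 arrays farthest in brightness, where 89 of all 543 names passed against 119 with all arrays, and 0 within slides 1, 2 and 3. The 11 called pairs became 45 without scaling, 17 in the deposited values, and 0, 3 and 0 within slides 1, 2 and 3, which hold 7 or 8 arrays. On slides 1 and 3 no pair of any names passed (smallest adjusted p 0.0613 and 0.0573), and on slide 2 it was 891 of 146070, so the counts of 0 say nothing about the 10 names. The count of 0 names with a different rank became 2, none of the 10, when ranks were taken among the tested names only. The other probe, also in the pairs of miR-638, the interaction with slide, and the values after brightness or slide centring were chosen after seeing the data.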
